A study of Homo sapiens with 12 samples.

Results

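The genes described here are the G1 cyclins and their kinases: the D cyclins CCND1, CCND2 and CCND3, the E cyclins CCNE1 and CCNE2, and the kinases CDK2, CDK4 and CDK6. They were taken by symbol, and all 8 were present among the 28008 genes of the count table of each cell line. RNA-seq was performed on QGP-1 and BON-1, both of them cell lines established from human pancreatic neuroendocrine tumors (pNETs). All 12 libraries came from cells carrying tet-MUC1shRNA, a doxycycline-inducible short hairpin RNA against the MUC1 transcript. Each line was treated with vehicle (0.1% DMSO) or with 500 ng/mL doxycycline (DOX) for 7 days, and 3 cultures per group were sequenced. The lines were grown in different media, so cell line and medium cannot be told apart. Libraries with a control hairpin were not analysed here, and DOX as an agent and the hairpin therefore cannot be told apart either.

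Progress through G1 is driven by cyclin-dependent kinases that are inactive without a cyclin. D cyclins respond to growth signals and activate CDK4 and CDK6, which begin the phosphorylation of the retinoblastoma protein RB. Phosphorylated RB releases E2F transcription factors, whose targets include the E cyclins, and cyclin E with CDK2 then completes RB phosphorylation and starts DNA replication. INK4 proteins inhibit CDK4 and CDK6, whereas CIP/KIP proteins inhibit CDK2 complexes.

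The QGP-1 libraries held 38224144 to 50525926 counts and the BON-1 libraries 15981954 to 28484324. Levels below are counts scaled to a common library total (CPM) after TMM scaling, which corrects for library size and composition, and were set within each line unless stated otherwise. MUC1, the hairpin target, served as the check of the labels. In QGP-1 cells MUC1 measured 7.19, 5.81 and 5.65 CPM with vehicle and 0.70, 1.04 and 0.74 CPM with DOX. In BON-1 cells it measured 20.6, 20.7 and 15.6 CPM with vehicle and 1.48, 2.65 and 3.97 CPM with DOX. The DOX libraries lay below the vehicle libraries in both lines, with log2 fold changes of -2.91 ± 0.23 (SE) in QGP-1 and -2.79 ± 0.22 in BON-1 cells.

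The neuroendocrine label was checked against 12 marker genes. In QGP-1 cells 11 of them exceeded 1 CPM, with SCG2 the most abundant at 2990 CPM and NEUROD1 at 0. In BON-1 cells 10 exceeded 1 CPM, with CHGA the most abundant at 5520 CPM, ISL1 at 0 and NCAM1 at 0.041 CPM. The summed level of the 12 markers was 6287 ± 411 CPM with vehicle and 7004 ± 336 with DOX in QGP-1 cells (SD, n = 3). In BON-1 cells this sum was 13918 ± 1753 CPM with vehicle and 9918 ± 234 with DOX. The 6 fibroblast genes summed to 2.73 ± 0.924 CPM with vehicle and 1.21 ± 0.0978 CPM with DOX in QGP-1 cells, where COL1A1 was the most abundant, and to 5.79 ± 0.757 and 10.97 ± 0.507 CPM in BON-1 cells, where LUM was. PTPRC, which defines leukocytes, was at 0.039 CPM in QGP-1 and 0.050 CPM in BON-1 cells. The 6 immune genes summed to 12.1 ± 1.32 CPM with vehicle and 18.7 ± 2.08 CPM with DOX in QGP-1 cells, where LYZ was the most abundant at 14.1 CPM. In BON-1 cells they summed to 27.4 ± 1.18 and 54.0 ± 3.11 CPM, with CD68 the most abundant at 37.9 CPM. The 4 endothelial genes summed to 35.2 ± 3.36 CPM with vehicle and 39.0 ± 2.76 CPM with DOX in BON-1 cells, with KDR at 36.0, PECAM1 at 0.555 and VWF at 0.530 CPM, and none exceeded 1 CPM in QGP-1 cells. The acinar markers were almost all PRSS1 and summed to 121 ± 35.1 CPM with vehicle and 34.0 ± 5.60 CPM with DOX in QGP-1 cells, and to 39.8 ± 5.33 and 23.5 ± 3.75 CPM in BON-1 cells. The 5 duct markers summed to 215 ± 21.2 and 184 ± 21.4 CPM in QGP-1 and to 429 ± 30.7 and 557 ± 63.8 CPM in BON-1 cells. All 4 epithelial markers exceeded 1 CPM in both lines, and summed to 2061 ± 75.8 and 2001 ± 6.68 CPM in QGP-1 and to 2362 ± 176 and 3077 ± 264 CPM in BON-1 cells. The part of these marker shifts in the cyclin and kinase results was not tested. In bulk RNA, fewer cells of a type and less RNA per cell cannot be told apart.

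With DOX, QGP-1 cells carried less CCNE2 and CDK2 RNA and more CCND1 and CDK6 RNA, whereas CCND2, CCND3, CCNE1 and CDK4 did not pass the test. The changes stayed below 2-fold: CCNE2 fell by 39.7%, while CDK6 rose by 33.6% and CCND1 by 25.7%. Genes were tested with edgeR's quasi-likelihood test and called at a Benjamini-Hochberg adjusted p below 0.05 over all 15089 genes tested in QGP-1. In that comparison 17.3% of all genes were called higher and 17.7% lower. The count of 2 of 8 in each direction is near this background and does not by itself set the 8 genes apart.

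CCND1 encodes cyclin D1, the most abundant D cyclin in both lines. In QGP-1 cells it measured 183, 193 and 179 CPM with vehicle and 251, 226 and 221 CPM with DOX. All 3 DOX libraries exceeded all 3 vehicle libraries, with a log2 fold change of 0.33 ± 0.07 (SE) and an edgeR adjusted p of 0.00231. CCND3, which encodes cyclin D3, ranged from 19.4 to 22.6 CPM over the 6 libraries and the groups overlapped, with a 95% interval of the log2 fold change from -0.12 to 0.30. CCND2, which encodes cyclin D2, was close to the limit of detection, with 29, 29 and 58 counts with vehicle and 26, 38 and 43 with DOX. Its interval, -0.96 to 0.82, leaves both a loss and a gain of nearly 2-fold possible at this depth.

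CCNE2 encodes cyclin E2 and showed the strongest response of the 8 genes in either line. In QGP-1 cells it measured 53.1, 62.4 and 69.9 CPM with vehicle and 34.0, 36.1 and 41.8 CPM with DOX. Every DOX library lay below every vehicle library, and CCNE2 fell by 0.73 ± 0.11 on the log2 scale (edgeR adjusted p = 1.63e-04). CCNE1, which encodes cyclin E1, measured 9.57, 9.67 and 10.9 CPM with vehicle and 7.26, 8.62 and 8.44 CPM with DOX. These groups did not overlap either, but the log2 fold change of -0.31 ± 0.13 did not pass (edgeR adjusted p = 0.0730).

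CDK2 encodes the kinase partner of the E cyclins. It measured 81.4, 81.6 and 85.4 CPM with vehicle and 62.0, 55.9 and 60.9 CPM with DOX in QGP-1 cells. The groups were well separated, and CDK2 fell by 0.47 ± 0.07 on the log2 scale (edgeR adjusted p = 2.56e-04). CDK6, a partner of the D cyclins, measured 264, 254 and 246 CPM with vehicle and 323, 377 and 321 CPM with DOX. All DOX libraries exceeded all vehicle libraries, with a log2 fold change of 0.42 ± 0.07 (edgeR adjusted p = 6.76e-04). These 4 calls were kept when any 1 of the 6 libraries was dropped. CDK4, the other partner of the D cyclins, measured 219, 220.2 and 218 CPM with vehicle and 258, 186 and 190.0 CPM with DOX. One DOX library lay above and the other two below the vehicle libraries, and the log2 fold change of -0.05 ± 0.10 did not pass (edgeR adjusted p = 0.729). CDK4 was called lower, at -0.21, without DOX replicate 1 (edgeR adjusted p = 0.0231), the DOX library farthest from the others of its group.

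**Figure D1:**
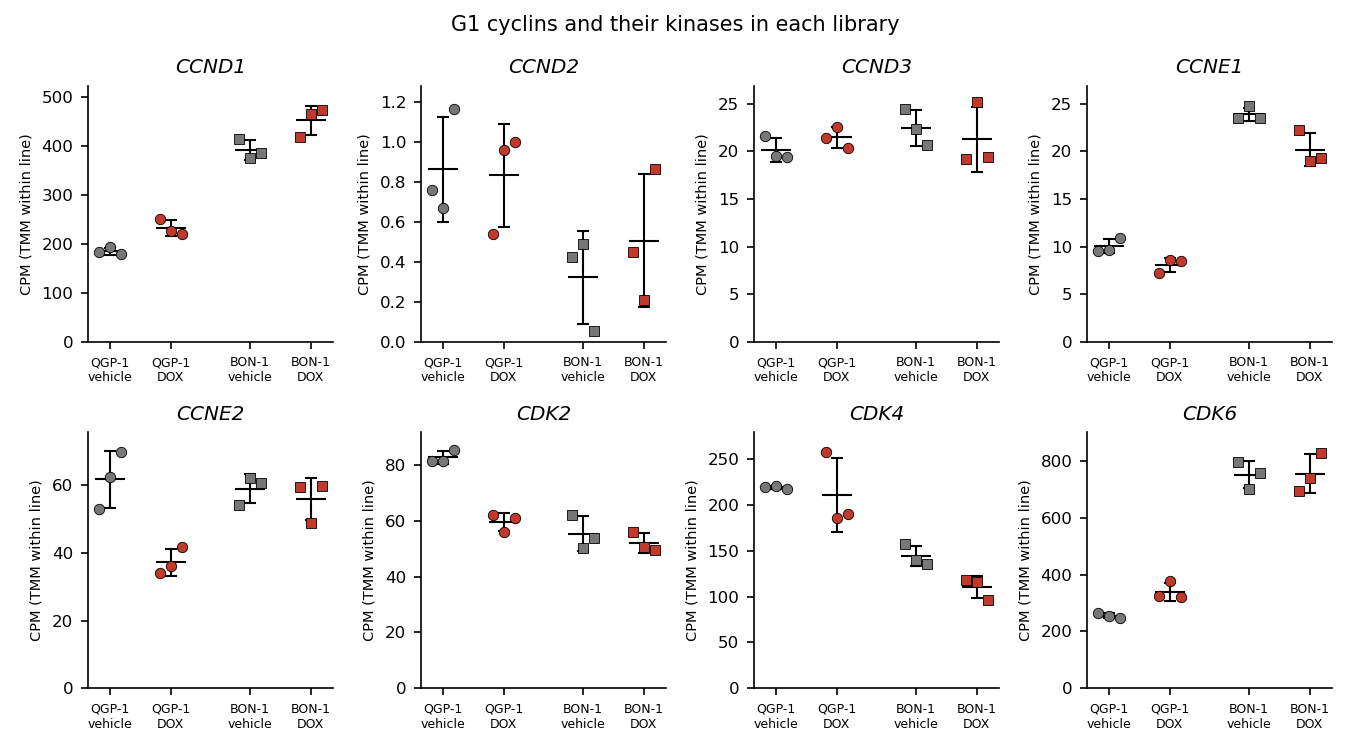
Level of each of the 8 genes in each library, in CPM scaled within the line (linear axes from 0, different for each gene). Circles are QGP-1 and squares BON-1 libraries, grey with vehicle and red with DOX; the horizontal bar and whiskers are the mean and SD of 3 libraries. All DOX libraries lie above all vehicle libraries for CCND1 in both lines and for CDK6 in QGP-1, and below them for CCNE1 in both lines, for CCNE2 and CDK2 in QGP-1 and for CDK4 in BON-1.

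In BON-1 cells CDK4 RNA was lower with DOX, CCND1 was higher, as in QGP-1 cells, and CCND3, CCNE1, CCNE2, CDK2 and CDK6 did not pass the test. CCND2 was not tested because its counts did not pass edgeR's default filter. Of the 7 genes tested, 1 was called higher and 1 lower, against 17% of the 14625 genes tested called higher and 18.3% called lower, so the count is no higher than the background.

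CDK4 measured 157, 140.3 and 136 CPM with vehicle and 119, 116 and 96.7 CPM with DOX in BON-1 cells. Every DOX library lay below every vehicle library, and CDK4 fell by 0.39 ± 0.08 on the log2 scale, or by 23.5% (edgeR adjusted p = 7.04e-04), a call that held without any 1 of the 6 libraries. CCND1 measured 414, 374 and 386 CPM with vehicle and 419, 466 and 473 CPM with DOX. The lowest DOX library, replicate 1, exceeded the highest vehicle library, replicate 1, by little. The log2 fold change was 0.21 ± 0.08 (edgeR adjusted p = 0.0360). This call did not pass without vehicle replicate 2 or 3 or DOX replicate 2 or 3, where the adjusted p ranged from 0.124 to 0.154. It did not pass either when library size replaced TMM (0.17, edgeR adjusted p = 0.0760). The same held without a filter on low counts (0.19, edgeR adjusted p = 0.0529) and with replicate number as a block (0.21, edgeR adjusted p = 0.0611).

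CCNE1 measured 23.5, 24.7 and 23.5 CPM with vehicle and 22.2, 19.0 and 19.3 CPM with DOX in BON-1 cells. As in QGP-1 cells, the groups did not overlap and the log2 fold change of -0.25 ± 0.12 did not pass (edgeR adjusted p = 0.0999). CCNE2 measured 54.2, 62.3 and 60.7 CPM with vehicle and 59.6, 48.9 and 59.8 CPM with DOX. CDK2 measured 62.3, 50.1 and 53.8 CPM with vehicle and 56.1, 50.7 and 49.4 CPM with DOX. For both genes the groups overlapped, and the 95% intervals of the log2 fold change ran from -0.27 to 0.12 for CCNE2 and from -0.29 to 0.10 for CDK2. CDK6 measured 796, 701 and 757 CPM with vehicle and 692, 741 and 828 CPM with DOX, with an interval from -0.17 to 0.18. CCND3 ranged from 19.2 to 25.2 CPM with overlapping groups, and CCND2 had 12, 11 and 1 counts with vehicle and 7, 4 and 17 with DOX.

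The deposited TPM values, which divide counts by gene length and fix the library total, gave other directions for some of these genes. Among the deposited TPM, a few abundant noncoding RNAs, RN7SK, RN7SL1 and RN7SL2, took 79.7% ± 0.785 of the total with vehicle and 72.9% ± 2.20 with DOX in QGP-1 cells, and 58.4% ± 7.35 and 66.0% ± 11.1 in BON-1 cells (SD, n = 3). On log2(TPM + 1) the median gene moved by 0.59 in QGP-1 and by -0.31 in BON-1 cells. In QGP-1 cells CCNE2 stood at 0.01 and CDK2 at 0.25 on that scale, which is -0.58 and -0.35 relative to the median gene, while CCND1 and CDK6 were 0.43 and 0.47 above it. In BON-1 cells CDK4 was 0.43 below the median gene, and CCND1, at -0.15, was 0.16 above it.

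Whether the lines responded differently was tested as the difference of the DOX responses, BON-1 minus QGP-1, in 1 fit of all 12 libraries over 16598 genes. Of the 8 genes, 2 were called higher and 1 lower, against 8.8% of all genes called higher and 7.92% lower. CCNE2 gave the largest difference, 0.67 ± 0.15 (SE), with an edgeR adjusted p of 0.00331, and kept its call whichever of the 12 libraries was dropped. CDK6 gave -0.40 ± 0.12 (edgeR adjusted p = 0.0225), and was lost without QGP-1 DOX replicate 2 (-0.32, adjusted p = 0.0838). CDK2 gave 0.39 ± 0.13 (edgeR adjusted p = 0.0339) but passed in only 4 of the 12 fits: without any of QGP-1 vehicle replicates 2 and 3, QGP-1 DOX replicates 1 and 2, BON-1 vehicle replicates 2 and 3 and BON-1 DOX replicates 1 and 2, its adjusted p lay above 0.05, up to 0.123. With library size in place of TMM the CDK2 difference was 0.32 (edgeR adjusted p = 0.0553).

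For CDK4 the call in BON-1 and the absence of one in QGP-1 do not amount to a tested difference: the responses differed by -0.33 ± 0.14, with an edgeR adjusted p of 0.127. CCND1 was called higher in both lines, though its BON-1 call was lost under several alternatives. Its difference was -0.11, with a 95% interval from -0.33 to 0.11. CCNE1 differed by 0.07, with an interval from -0.28 to 0.43. CCND3 differed by -0.16 (-0.51 to 0.19), and CCND2 by 0.67 with an interval from -1.09 to 2.42 that excludes little.

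**Figure D2:**
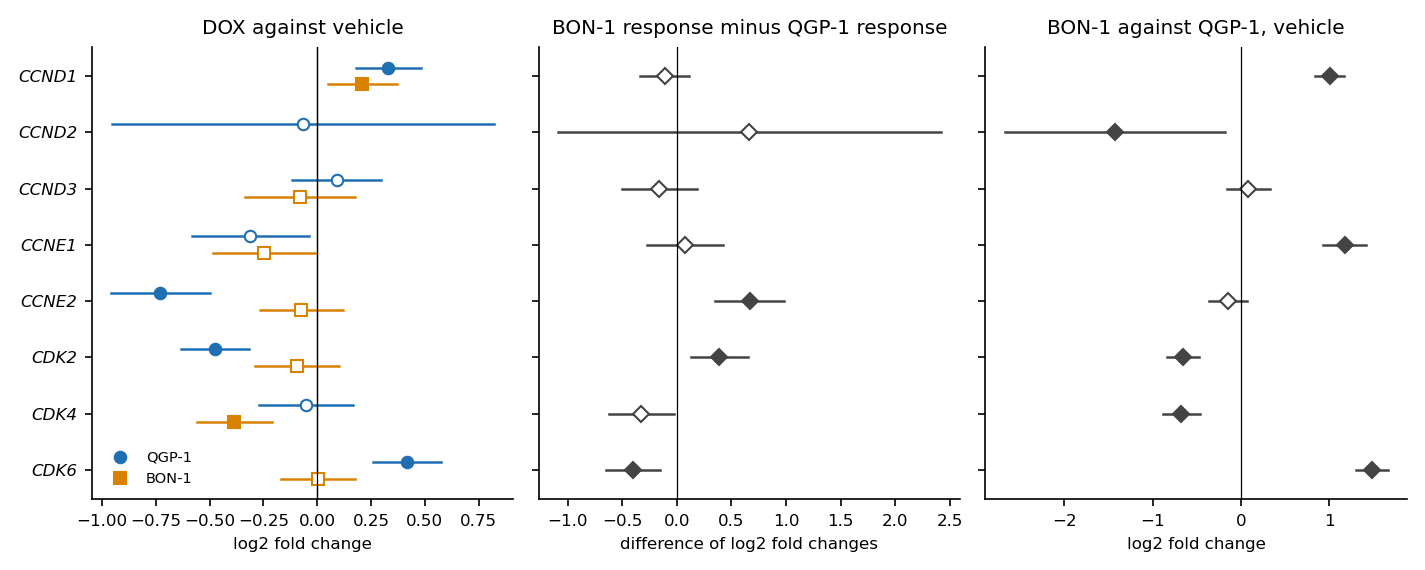
Log2 fold changes (points) with 95% intervals (lines) from edgeR for DOX against vehicle in each line (left), for the difference of these responses (middle) and for BON-1 against QGP-1 with vehicle (right). Filled symbols passed an adjusted p of 0.05; CCND2 was not tested in BON-1 alone. The lowest value is that of CCNE2, at -0.73, in QGP-1 and that of CDK4, at -0.39, in BON-1.

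With vehicle alone, BON-1 cells carried more CDK6, CCNE1 and CCND1 RNA than QGP-1 cells and less CDK4 and CDK2 RNA. Levels for this comparison were scaled over all 12 libraries, and with vehicle 37.5% of the 16598 genes were called higher and 37.5% lower in BON-1 than in QGP-1 cells, so that a call is common here. Of the 8 genes, 3 were higher in BON-1 (CCND1, CCNE1, CDK6), 3 were lower (CCND2, CDK2, CDK4), and CCND3 and CCNE2 did not pass. CDK6 measured 261 ± 9.12 CPM in QGP-1 and 730.2 ± 50.0 CPM in BON-1 cells (SD, n = 3), a 2.80-fold difference (log2 1.48 ± 0.09 (SE), edgeR adjusted p = 7.01e-14). CCNE1 measured 10.3 ± 0.734 and 23.2 ± 0.735 CPM, 2.25-fold higher in BON-1 (edgeR adjusted p = 3.23e-09). CCND1 measured 189.7 ± 7.33 and 380.3 ± 22.8 CPM, 2.01-fold higher (edgeR adjusted p = 1.91e-11).

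In the other direction, CDK4 measured 225 ± 1.22 CPM in QGP-1 and 140.3 ± 12.3 CPM in BON-1 cells, a log2 difference of -0.68 ± 0.10 (edgeR adjusted p = 1.78e-06). CDK2 measured 84.9 ± 2.39 and 53.9 ± 6.44 CPM, a log2 difference of -0.65 ± 0.09 (edgeR adjusted p = 3.55e-07). CCND2 was lower in BON-1 by a log2 difference of -1.43 ± 0.60 (edgeR adjusted p = 0.0360), a call lost without QGP-1 vehicle replicate 3 (-1.15) or BON-1 vehicle replicate 3 (-1.01). CCNE2 measured 63.4 ± 8.66 CPM in QGP-1 and 57.4 ± 3.8 CPM in BON-1 cells and CCND3 20.7 ± 1.28 and 21.8 ± 2.06 CPM, differences within the spread between libraries. The line difference was larger than the DOX response for CCND1, CCNE1, CDK2, CDK4 and CDK6, in log2 units and in both lines. The lines also differed in medium and depth, which cannot be told apart from the line.

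Levels of different genes were compared per gene length, as each gene's share of the summed TPM of the 8 genes, which does not depend on how a library is scaled. In QGP-1 cells with vehicle CDK4 came first with 46.3% ± 0.601 (SD, n = 3), followed by CCND1 with 16.8% ± 0.646, CDK2 with 14.9% ± 0.349, CCNE2 with 9.18% ± 1.16 and CDK6 with 8.02% ± 0.369. CCND3 with 2.55% ± 0.188, CCNE1 with 2.18% ± 0.142 and CCND2 with 0.050% ± 0.015 were the lowest. CCNE2 and CDK6 overlapped between libraries, and every other neighbouring pair in this order kept its order in all 3 libraries without overlap of their ranges.

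In BON-1 cells with vehicle CCND1 came first with 30.4% ± 0.221, followed by CDK4 with 26.2% ± 0.893 and CDK6 with 20.3% ± 0.628. CDK2 with 8.55% ± 0.524 and CCNE2 with 7.57% ± 0.913 overlapped, followed by CCNE1 with 4.47% ± 0.325, CCND3 with 2.43% ± 0.125 and CCND2 with 0.016% ± 0.012. With DOX the ranges of CDK4 and CDK6 overlapped in BON-1 cells, at 20.7% ± 2.43 and 21.0% ± 1.68. Those of CDK2 and CCNE2 overlapped there as well, at 8.31% ± 0.690 and 7.39% ± 0.873. In QGP-1 cells with DOX the ranges of CDK2 and CDK6 overlapped, at 11.1% ± 0.794 and 11.1% ± 1.74. Among all genes with a TPM above 0 with vehicle, CDK4 stood at the 97.3rd percentile in QGP-1 and the 95.3rd in BON-1 cells, and CCND2 at the 24.3rd and the 11.8th.

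**Figure D3:**
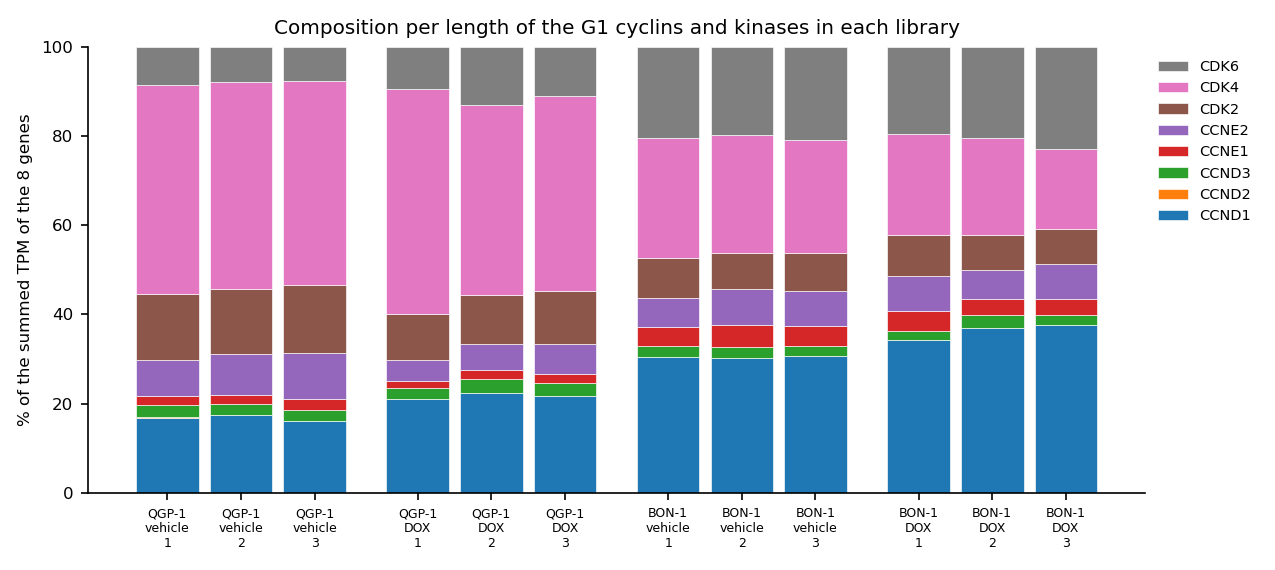
Share of each gene in the summed TPM of the 8 genes, in percent, one stacked bar per library (replicate number under the bar). CDK4 is the largest share in all QGP-1 bars, at 42.8% to 50.5% with DOX, and CCND1 the largest in all BON-1 bars; CCND2 is too small to see.

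The balance within each subfamily was described as a share of TPM among its members and compared by an exact two-sided permutation test, for which 3 against 3 libraries cannot give a p below 0.1. CDK6 made up 15.2%, 14.6% and 14.4% of CDK4 and CDK6 together with vehicle in QGP-1 cells, and 15.7%, 23.2% and 20.1% with DOX (exact p = 0.1). In BON-1 cells CDK6 made up 43.0%, 42.6% and 45.4% with vehicle, and 46.5%, 48.7% and 56.0% with DOX (exact p = 0.1). In both lines all DOX libraries lay above all vehicle libraries, in QGP-1 cells by little for replicate 1, whose CDK4 level was the highest of its line.

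CCNE2 made up 79.1%, 81.5% and 81.5% of the E cyclins with vehicle in QGP-1 cells and 76.2%, 74.1% and 77.2% with DOX (exact p = 0.1). In BON-1 cells this share was 62.8% ± 1.37 with vehicle and 65.5% ± 2.14 with DOX (SD, n = 3), with exact p = 0.2 and overlapping groups. CCND1 made up 86.6% ± 0.894 of the D cyclins with vehicle and 88.4% ± 0.852 with DOX in QGP-1 cells (exact p = 0.1), and 92.6% ± 0.429 and 93.8% ± 0.777 in BON-1 cells (exact p = 0.2).

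CDK4 and CDK6, the partner kinases of the D cyclins, were each called with DOX in 1 line. Of the 8 genes 4 had an entry in the RefSeq promoter table (GRCh38.p14), among them both kinases. Their promoters are shown to set the sequences beside these results, as the 250 bases before a RefSeq start of transcription. CDK4 lies on chromosome 12 (GENCODE, GRCh38, 57747727 to 57756013, minus strand) and CDK6 on chromosome 7 (92604921 to 92836573, minus strand). The RefSeq start of CDK4 lies inside the GENCODE span, whose outermost start is farther upstream, so the CDK4 window is within the gene as GENCODE draws it. CDK6 has a second RefSeq start, whose window is not shown. The windows below are chr12:57752311-57752560 for CDK4 and chr7:92836574-92836823 for CDK6, both read on the minus strand, with capitals marking CACGTG, the letters of the E-box that MYC and related factors are known to bind.
CDK4: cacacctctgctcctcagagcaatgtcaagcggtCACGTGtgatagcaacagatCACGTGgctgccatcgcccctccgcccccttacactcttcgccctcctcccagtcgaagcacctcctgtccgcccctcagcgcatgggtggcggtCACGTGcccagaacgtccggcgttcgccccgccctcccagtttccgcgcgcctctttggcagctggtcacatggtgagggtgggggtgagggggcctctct
CDK6: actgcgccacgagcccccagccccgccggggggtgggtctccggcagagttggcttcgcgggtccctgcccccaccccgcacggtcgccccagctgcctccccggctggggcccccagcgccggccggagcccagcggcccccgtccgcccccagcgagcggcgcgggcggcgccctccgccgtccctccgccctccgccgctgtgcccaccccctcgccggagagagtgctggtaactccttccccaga

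The CDK4 window held CACGTG 3 times, starting 216, 196 and 101 bases before the start, and both CDK6 windows held it 0 times. Of 35116 promoter windows of the same length 6.34% held CACGTG at least once and 0.0797%, or 28, held it 3 times or more. None of these windows held TTTCCCGC, TTTGGCGC, TTTCGCGC or TTTGCCGC, letters of E2F sites searched on both strands, which 2.79% of the windows held. These are matches of letters and do not show binding. CCND1 and CDK2 are named without a promoter sequence. CCND1 lies on chromosome 11 (69641156 to 69654474, plus strand), CDK2 on chromosome 12 (55966781 to 55972789, plus strand), CCND2 on chromosome 12 (4269771 to 4305353, plus strand), CCND3 on chromosome 6 (41934934 to 42050357, minus strand), CCNE1 on chromosome 19 (29811991 to 29824312, plus strand) and CCNE2 on chromosome 8 (94879770 to 94896678, minus strand). CDK2 lies within the span of PMEL, CDK4 overlaps TSPAN31 and MARCHF9, CCNE2 overlaps INTS8 and NDUFAF6 by 1977 and 1146 bases, and CCND1 overlaps LTO1 by 1399 bases, all on the opposite strand. CCND2 overlaps another coding gene on its own strand by 31592 bases, further noncoding genes overlap all but CCND1 and CCNE1, and CCND2, CCND3 and CDK4 have pseudogenes. Whether the counting used strand is not given in the sources used here, so their values may hold reads of these neighbours.

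The rest of the G1 network was described through 7 lists of genes of known roles, whose counts stand beside 17.3% of all genes called higher and 17.7% lower in QGP-1, and 17% higher and 18.3% lower in BON-1 cells. Among the G1/S targets of E2F, many of which serve DNA replication, 8 of 18 were lower and 0 higher in QGP-1, and 6 of 18 were lower and 0 higher in BON-1 cells. The median log2 fold change was -0.19 in QGP-1, where it was -0.01 for all genes tested, and -0.16 in BON-1, where it was -0.01 for all genes. CDT1, which licenses replication origins, fell by 0.36 ± 0.11 in QGP-1 and by 0.48 ± 0.13 in BON-1 cells. TK1, a thymidine kinase, fell by 0.33 ± 0.12 and by 0.59 ± 0.12, and MYBL2, a cell cycle transcription factor, by 0.41 ± 0.10 and by 0.62 ± 0.08. MCM5, a subunit of the replicative helicase, fell by 0.58 ± 0.08 in QGP-1 and stood at -0.19 ± 0.09 in BON-1 cells. The QGP-1 count dropped to 5, 4 and 5 without vehicle replicate 1, vehicle replicate 2 and DOX replicate 2, and ranged from 5 to 8 over such fits in BON-1 cells. In QGP-1 cells TK1 passed in only 1 of 6 such fits, and CDT1 lost its call without vehicle replicate 1, vehicle replicate 2 or DOX replicate 1. MYBL2, TK1, CKS1B, PKMYT1, CCNG1 and TFDP1 are also in lists that the study chose from these libraries, so their direction is not independent evidence.

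Of the genes of RB, its relatives and E2F, 4 of 13 were higher and 5 lower in QGP-1, and 3 were higher and 3 lower in BON-1 cells, where the counts are near the background of 17% and 18.3%. RBL1, an RB relative, fell by 0.46 ± 0.10 in QGP-1 and by 0.62 ± 0.08 in BON-1 cells. TFDP1, a partner that E2F needs to bind DNA, fell by 0.32 ± 0.08 and by 0.25 ± 0.07, while its relative TFDP2 rose by 0.28 ± 0.08 and by 0.53 ± 0.09. E2F7, an atypical E2F that represses E2F targets, rose by 0.39 ± 0.11 and by 0.30 ± 0.08. E2F1, an activator, fell by 0.52 ± 0.09 in QGP-1 and stood at -0.05 ± 0.10 in BON-1 cells. In QGP-1 cells TFDP2 lost its call without vehicle replicate 1, DOX replicate 2 or DOX replicate 3 and E2F7 without vehicle replicate 1.

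Among the 7 INK4 and CIP/KIP inhibitors, 1 was higher and 1 lower in QGP-1, and 2 of 5 tested were higher in BON-1 cells. CDKN2B, an INK4 inhibitor of CDK4 and CDK6, rose by 0.80 ± 0.10 with DOX in QGP-1 cells. CDKN1C, a CIP/KIP inhibitor, fell by 1.26 ± 0.20 there and stood at 0.26 ± 0.55 in BON-1 cells. Its level in BON-1 cells was low, at 0.54 CPM with vehicle and 0.66 CPM with DOX. CDKN1B, which encodes p27, rose by 0.32 ± 0.08 in BON-1 cells and stood at 0.14 ± 0.08 in QGP-1 cells. CDKN2A and CDKN2B had 0 counts in all 6 BON-1 libraries, against 2438 to 4820 and 1472 to 3170 counts in QGP-1. With 3 counts per library as the floor, BON-1 cells with vehicle held CDKN2A at a level at least 500.2-fold lower and CDKN2B at least 232-fold lower. CDKN2A is named here after its values were seen.

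Of 6 genes that switch the kinases on or off by phosphorylation, 1 was lower in QGP-1, and 1 was higher and 1 lower in BON-1 cells. PKMYT1, an inhibitory kinase of CDK1, fell by 0.59 ± 0.11 in QGP-1 and by 0.39 ± 0.13 in BON-1 cells, where the call was lost without vehicle replicate 1 or 2. MNAT1, an assembly factor of the CDK-activating kinase, rose by 0.25 ± 0.09 in BON-1 cells, a call that passed in 3 of 6 fits without 1 library and not with library size in place of TMM (edgeR adjusted p = 0.105) or with both lines in one fit (0.0564).

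Among 12 genes of ubiquitin ligases that degrade G1 cyclins or p27, 3 were higher and 3 lower in QGP-1, and 2 were higher and 2 lower in BON-1 cells, at the background of 17% and 18.3%. RBX1, the RING subunit of cullin ligases, fell by 1.00 ± 0.10 in QGP-1 and stood at -0.07 ± 0.09 in BON-1 cells. FBXW7, which recognises phosphorylated cyclin E, rose by 0.34 ± 0.07 in QGP-1, and SKP1, the adaptor of SCF ligases, by 0.40 ± 0.08 in BON-1 cells. CKS1B, a cofactor for p27 recognition, fell by 0.74 ± 0.12 and by 0.31 ± 0.09. SKP2, which recognises p27, rose by 0.22 ± 0.08 and by 0.19 ± 0.08, but passed in only 1 of 6 fits without 1 library in each line, and not with library size in BON-1 cells (edgeR adjusted p = 0.0927).

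For the later phases, 1 of 6 tested S, G2 and M cyclins and CDK1 was lower in QGP-1, whereas 4 were lower and 1 higher in BON-1 cells. CCNA2 is also among the G1/S targets of E2F, so its lower call in BON-1 cells counts in both lists. CDK1, the mitotic kinase, fell by 0.38 ± 0.09 in QGP-1 and stood at 0.07 ± 0.08 in BON-1 cells. CCNB2, a mitotic cyclin, fell by 0.57 ± 0.08 in BON-1 and stood at -0.12 ± 0.09 in QGP-1 cells. CCNB3, a cyclin with 13 to 72 counts per BON-1 library, rose by 0.98 ± 0.35 there, passing in 2 of 6 fits without 1 library and not with both lines in one fit (edgeR adjusted p = 0.0749). In the test of the difference between lines, the DOX response was lower in BON-1 for 3 of the 6 (CCNB1, CCNB2, CCNF) and higher for 1 (CDK1). Over all genes 7.92% were lower and 8.8% higher in this test. CCNB1 and CCNF are named after their values were seen. Of 27 other cyclins and CDKs tested, 4 were higher and 7 lower in QGP-1, and 2 were higher and 4 lower in BON-1 cells, against 17.3% and 17.7% of all genes in QGP-1 and 17% and 18.3% in BON-1. CDK18 fell by 1.00 ± 0.19 and by 1.16 ± 0.13, CCNG1, a p53 target, by 0.49 ± 0.06 and by 0.71 ± 0.08, and CCNC, a cyclin of the Mediator complex, by 0.33 ± 0.08 and by 0.32 ± 0.09. CDK19, a Mediator kinase, rose by 0.53 ± 0.09 in QGP-1 and CCNL1 by 0.28 ± 0.09 in BON-1 cells. CCNC lost its BON-1 call without vehicle replicate 2 or DOX replicate 2, and CCNL1 passed in 3 of 6 such fits and not with library size (edgeR adjusted p = 0.0824).

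**Figure D4:**
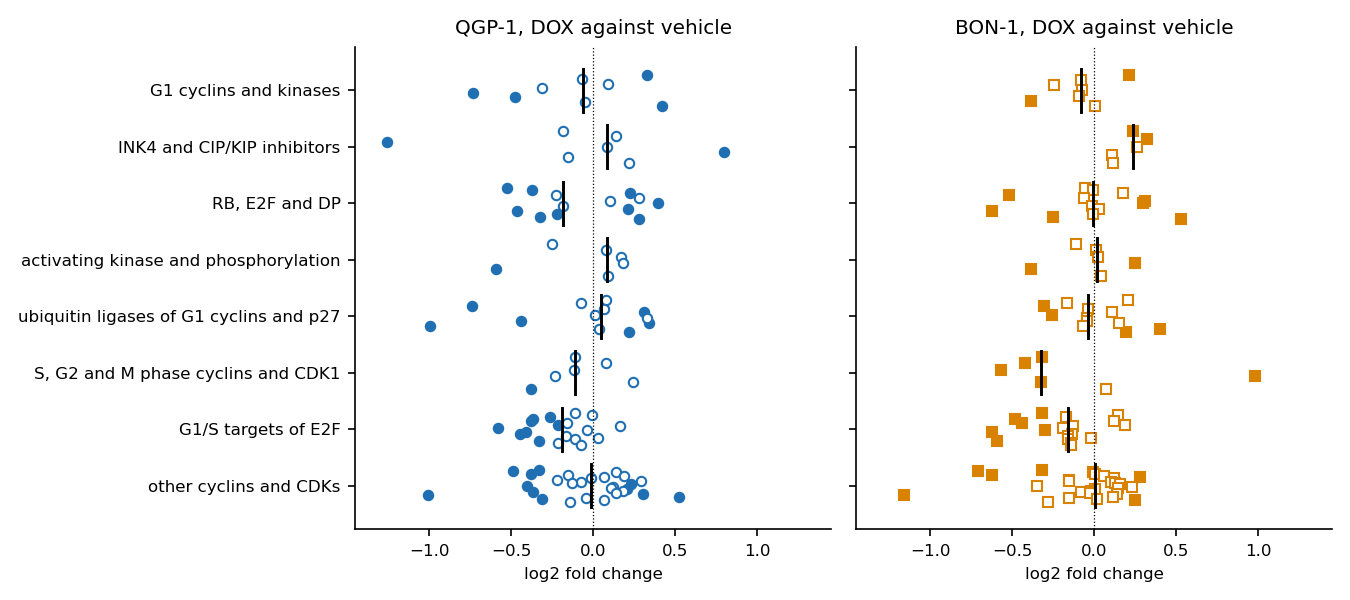
Log2 fold change with DOX of each tested gene of the G1 cyclins and kinases and of 7 related lists, in QGP-1 (left, circles) and BON-1 cells (right, squares); black bars are list medians. Filled symbols passed an edgeR adjusted p of 0.05; no filled symbol of the E2F target list lies above 0 in either line.

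The genes whose pattern was most like each of the 8 were found by Pearson's r of log2 CPM over the 12 libraries, centred within each line, among genes whose log2 CPM averaged 3 or more. The libraries share treatment and depth, and r is given as a description. CCND1 was most like SFXN3 (r = 0.98) and PRDM4 (0.97). CCNE2 was most like NUDT12 (0.97) and RFK (0.97), and CCNE1 like COA3 (0.95) and TGIF2 (0.95). CDK2 was most like CBR1 (0.97) and SNX17 (0.95), CDK4 like POP7 (0.96) and NUDC (0.95), and CDK6 like AHCTF1 (0.97) and ID4 (0.96). For CCND3 the closest were GTF2F1 (0.90) and MAPK8IP1 (0.89), and for CCND2, whose counts are few, TWSG1 (0.86) and CTPS2 (0.81).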

How the data were processed

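RNA-seq libraries were prepared by the authors from total RNA with a stranded mRNA kit and aligned with STAR to GRCh38 (hg38), as named in the submitters' processing notes. The authors deposited, for each line, raw counts per gene, and TPM values, in which counts are divided by gene length and scaled to a fixed total per library. The counting program and its strand setting are not given in the sources used here. Groups were taken from the sample titles, each column was matched by the name in the labels, and 0 columns were left unused.

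The counts went into edgeR 4.0.16, run in R 4.3.3 (default filter on low counts, TMM, quasi-likelihood test, Benjamini-Hochberg over all genes tested, adjusted p threshold 0.05). DESeq2 1.42.0 and limma 3.58.1 on log2(TPM + 1) were alternatives, besides other normalizations and filters, a smaller pseudocount of 0.1, a minimum absolute log2 fold change of 1, a replicate block, and each library left out. Shares used the deposited TPM and an exact permutation test. Code was tested on simulated data. The 8 genes, the lists and the tests were chosen with earlier results of these data known. Named by rule were the 8 genes, MUC1, the largest call in each direction per list and line, list genes called in both lines, and the 2 genes most like each member. Among the 8 genes CCND2 had the fewest counts, so depth limits it most. Replicates came from triplicate cultures, as the study's methods state, and differed by more than sampling noise (chi-square per gene 5.93 to 29.7), so each counted once. Positions and overlaps are from GENCODE release 44.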

Additional observations from a re-analysis of the deposited data

Results flagged for a closer look

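Of the genes named by rule, 10 differed between the lines in their response to DOX, by edgeR's test of the difference (BON-1 minus QGP-1, log2 scale) over 16598 genes. Among the G1 cyclins and kinases these were CCNE2 at 0.67, CDK2 at 0.39 and CDK6 at -0.40, described above. RBX1 differed by 0.94 and CCNB2 by -0.44, and both kept their calls whichever of the 12 libraries was dropped. CDK1 differed by 0.47 and passed in 9 of the 12 fits without 1 library, and E2F1 by 0.48, passing in 8. MCM5 differed by 0.40 and passed in 5, SKP1 by 0.38 and CDKN1C by 1.53, each passing in 3. CDKN1C was close to the limit of detection in BON-1 cells, at 0.54 CPM with vehicle and 0.66 CPM with DOX. The MCM5 and SKP1 differences did not pass with library size in place of TMM (edgeR adjusted p = 0.0545 and 0.0958), nor that of CDKN1C with the replicate block (0.0598). Over the fits without 1 library the highest adjusted p was 0.0662 for CDK1, 0.0573 for E2F1, 0.0895 for MCM5, 0.142 for SKP1 and 0.132 for CDKN1C. CCNB1 at -0.49 and CCNF at -0.55, named after their values were seen, also passed this test. What sets these differences was not tested.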

How the results depend on the processing

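DESeq2, DESeq2 size factors in edgeR, and both lines in one fit changed no call of the 8 genes, and the vehicle libraries alone changed none between the lines. Replicate numbers did not pair the libraries (correlations of same-numbered libraries -0.039 to 0.067). With the replicate block 0 of the 8 genes was higher in BON-1 cells, as CCND1 (0.21) had an edgeR adjusted p of 0.0611. That count was also 0 with library size, without a filter on low counts and on both TPM scales, and the difference of responses then had 1 gene higher with library size and, without the filter, 1 higher and 2 lower. The CCND2 difference between the lines (-1.32) did not pass with library size (edgeR adjusted p = 0.0542), and the CDK4 difference of responses (-0.35) passed without the filter (0.0244). CDK6 in BON-1 turned to -0.04 with library size, -0.014 without the filter and -0.0091 with at least 10 counts in every library. On log2(TPM + 1) and log2(TPM + 0.1), where the median gene shifted, limma called 9149 and 9139 genes higher and 89 and 87 lower in QGP-1 cells, with 5 and 0 of the 8 genes, and 34 and 44 higher and 335 and 356 lower in BON-1 cells, with 0 of the 8 lower. In QGP-1 cells CCNE1 (0.31 and 0.41) and CDK4 (0.66 and 0.67) turned positive and passed as higher. Their limma adjusted p values were 0.0248 and 0.0194 for CCNE1, and 2.69e-05 and 2.94e-04 for CDK4. CCND3, at 0.63 and 0.80, then passed too (limma adjusted p = 6.47e-05 and 1.43e-04), as did CCND1 and CDK6. CCNE2 (0.014 and 0.014) and CDK2 (0.25 and 0.26) did not pass. In BON-1 cells the values were -0.15 and -0.16 for CCND1 and -0.35 and -0.36 for CDK6, and CDK4 (-0.74 and -0.75) no longer passed. With an absolute log2 fold change above 1, 0 of the 8 genes passed with DOX in either line, against 183 genes higher and 360 lower in QGP-1 and 272 and 447 in BON-1 cells; between the lines 3613 and 3118 passed, with 3 of the 8 genes higher and 1 lower. From raw counts the CDK6 share in QGP-1 differed by 8.05 percentage points between DOX and vehicle in place of 4.92. The share itself also depends on gene length, which the TPM took as 6.72 times longer for CDK6 than for CDK4. From raw counts CDK6 made up 54.7%, 53.5% and 53.1% of CDK4 and CDK6 with vehicle in QGP-1 cells. Leaving out each library gave 0 to 1 of the 8 genes higher in BON-1, 1 to 2 higher and 0 to 1 lower in the difference, and 4 to 9 E2F targets lower in QGP-1 cells. Over those fits the log2 values ran from -0.22 to 0.21 for CCND2 and from -0.21 to 0.035 for CDK4 in QGP-1, from -0.085 to 0.055 for CDK6 and from -0.14 to 0.0072 for CCNE2 in BON-1, and from -0.056 to 0.12 for CCNE1 and from -0.021 to 1.01 for CCND2 in the difference. Of the list genes' calls, library size ended that of TK1 in QGP-1 (edgeR adjusted p = 0.0583), those of MNAT1 (0.105), SKP2 (0.0927) and CCNL1 (0.0824) in BON-1, and the differences of SKP1 (0.0958) and MCM5 (0.0545). Both lines in one fit ended MNAT1 (0.0564) and CCNB3 (0.0749), either other filter ended SKP2 (0.0853 and 0.0551), and the replicate block ended SKP2 (0.0678) and the CDKN1C difference (0.0598). The alternatives for the list counts and list genes were chosen after seeing the data. The cause of these changes was not tested.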

Other observations

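With vehicle, the later cell cycle genes also differed between the lines. All 6 tested S, G2 and M cyclins and CDK1 were higher in BON-1 than in QGP-1 cells by edgeR, against 37.5% of all genes, with log2 differences of 2.48 ± 0.09 (SE) for CDK1, 1.32 ± 0.09 for CCNB1 and 0.90 ± 0.07 for CCNA2. Of the 18 G1/S targets of E2F, which also include CCNA2, 6 were higher and 10 lower in BON-1 cells. Among these targets CDC6 stood at -1.08 ± 0.07 and MYBL2 at 1.18 ± 0.09. Except for CDK1 and MYBL2 these genes were named after their values were seen.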
